A study of Mus musculus with 9 samples.

Results

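The C/EBP transcription factors were followed across 9 Affymetrix expression arrays of NIH-CAR cells. The list named 6 genes, and every probe set whose platform annotation gave one of them as its only symbol was taken, which found 10 probe sets for 5 genes, Cebpa, Cebpb, Cebpd, Cebpg and Ddit3, among 34945 probe sets and 18193 genes in all. Cebpz was not analysed here. NIH-CAR is 1 clonal line of NIH-3T3 mouse fibroblasts with a stable coxsackie-adenovirus receptor (CARΔ1), through which adenoviral vectors enter, and all cells were at passage 12. Virus was left on for 2 h in every group. The empty-vector group (AdEmpty) then received vehicle, DMSO. The full-length group (AdHA-PPARg2) received an adenovirus for HA-tagged PPARγ2 and then 1 µM rosiglitazone, an agonist of that receptor. The A/B-deleted group (AdHA-PPARgCDE) received an adenovirus for HA-tagged PPARγ without its N-terminal A/B-domain and then 1 µM rosiglitazone. Each group held 3 arrays, numbered 1 to 3 in the labels. Receptor and agonist changed together against empty vector, so their parts cannot be told apart, and the labels do not say which arrays came from 1 experiment, so the p-values reflect only how these arrays of a single line varied.

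C/EBP proteins bind DNA as dimers through a basic region and a leucine zipper (bZIP), and the family was named after a CCAAT box. In fibroblast-like preadipocytes given adipogenic hormones, C/EBPβ and C/EBPδ are induced early and help to switch on Pparg and Cebpa, after which PPARγ and C/EBPα maintain each other's expression and drive the genes of the fat cell. C/EBPγ and CHOP, the product of Ddit3, pair with other family members and can hold back their activity, and CHOP is also a mediator of the stress response of the endoplasmic reticulum. The comparisons asked how the transcripts of this family stood in cells in which PPARγ was supplied from outside, with and without its A/B-domain.

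Promoter sequences of 4 of the listed genes, Cebpa, Cebpb, Cebpg and Ddit3, were found in RefSeq's table for GRCm38.p6. The 300-base windows, 250 bases before to 50 after the start of the gene, were searched on both strands. The 100 bases before the start are shown for the genes that held a CCAAT box, with the match in capitals as it reads on the opposite strand, ATTGG. The Cebpg sequence is chr7:35056567-35056666, minus strand, and the Ddit3 sequence is chr10:127290693-127290792, plus strand.
Cebpg: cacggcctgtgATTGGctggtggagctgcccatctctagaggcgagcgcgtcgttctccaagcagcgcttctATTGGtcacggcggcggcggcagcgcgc
Ddit3: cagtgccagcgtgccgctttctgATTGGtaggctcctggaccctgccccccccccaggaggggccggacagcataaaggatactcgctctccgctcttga

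Cebpg held 2 CCAAT boxes and Ddit3 held 1, a motif found in 37.4% of the 32851 promoter windows. The receptor half-site AGGTCA, which may overlap the longer repeat, was found at the start of Ddit3, from 1 base before it, and in none of the other 3 windows, against 16.3% of all windows. Its direct repeat with 1 base between, AGGTCANAGGTCA, was in none of the 4 and in 0.0396% of all windows, and the C/EBP core TTGCNNAA was in none of the 4 and in 10.8%. TGACGTCA, a cAMP response element, was in none of the 4 and in 1.79%. Cebpa held the TATA box TATAAA, 30 bases before the start, and Cebpb held it 22 bases after the start, against 13.6% of all windows. A match describes the letters of a window and no site of binding.

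All levels and differences are on the log2 scale, on which a difference of 1 is a doubling. Levels of different probe sets are set side by side only in marker averages, against array medians, and in choosing probe sets or genes by level. Tests are those of limma over all genes or all probe sets, called at an adjusted p under 0.05, and where a gene had several probe sets the one with the highest mean over the 9 arrays stood for it and is here called kept. Array medians ran from 6.68 to 6.90, and no detection call was used here. The arrays numbered 3 stood apart on the first principal component (38.1% of the variance), at 20.57 to 42.52, while the other 6 did not pass 0. Their 18S ribosomal RNA controls averaged 7.59 to 8.67 against 10.51 to 12.44 on the other 6. Of the 10 C/EBP probe sets, 4 were lowest on the array numbered 3 in all 3 groups, as were 14.4% of all probe sets. Values without these arrays are given beside the results they touch.

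Cebpd, which encodes C/EBPδ, was the only member with a called difference. On its kept probe set, 1423233_at, the empty-vector arrays 1, 2 and 3 read 11.42, 10.87 and 10.76. The full-length arrays read 9.40, 8.88 and 8.85, so all 3 lay below all 3 of the empty vector. The mean fell from 11.02 ± 0.35 (SD, n = 3) to 9.05 ± 0.31, a difference of -1.97 (SE 0.26, adjusted p = 0.00935, limma over all genes), or a level 3.92-fold lower. Between arrays of equal number the difference was -2.02, -1.98 and -1.91. It was the 5th most negative difference among the 18193 genes.

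The second probe set of Cebpd, 1456605_at, moved the same way with more spread. Its empty-vector arrays read 8.29, 8.03 and 6.64 and its full-length arrays 7.05, 6.57 and 5.39, so the groups overlapped, and in each group the array numbered 3 was lowest. The difference was -1.32 (SE 0.53), which limma over all probe sets did not call (adjusted p = 0.707), but did with the replicate number as a block (0.0129). Between arrays of equal number it was -1.24, -1.46 and -1.25. With the mean of both probe sets Cebpd stood at -1.64 and was not called (adjusted p = 0.108), and on the kept probe set the call was lost without full-length replicate 2 (-1.89, adjusted p = 0.0550). Without the 3 arrays numbered 3 the difference of the kept probe set was -2.0 (adjusted p = 0.0493).

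With the A/B-deleted receptor Cebpd also lay below empty vector. The A/B-deleted arrays read 9.90, 9.08 and 9.73 on the kept probe set, again all below the 3 empty-vector arrays, with a mean of 9.57 ± 0.43. The difference from empty vector was -1.44 (SE 0.26), a level 2.72-fold lower, which was not called in the fit without a block (adjusted p = 0.109, limma over all genes). With the replicate number as a block in the fit of all arrays, it was called (adjusted p = 0.0168, limma). That fit also used the full-length arrays, and whether equal numbers were pairs is not known. Between arrays of equal number the difference was -1.52, -1.78 and -1.03. Only 2 of the 18193 genes had a more negative difference in this comparison. The second probe set read 7.40, 6.69 and 6.17, and its difference of -0.90 (SE 0.53) was not called with the block (adjusted p = 0.0983) or without it (adjusted p = 1.00).

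Between the receptors, Cebpd was at 9.57 with the A/B-deleted and 9.05 with the full-length receptor, and their arrays overlapped. The difference of 0.53 had a 95% interval from -0.052 to 1.10 and was not called (adjusted p = 1.00, limma over all genes; unadjusted p = 0.0697). With the block the interval ran from 0.16 to 0.89 (adjusted p = 0.896). The A/B-deleted array lay above the full-length array of equal number in 3 of 3 pairs on both probe sets, by 0.50, 0.20 and 0.88 on the kept one and by 0.35, 0.13 and 0.78 on the other. Without the arrays numbered 3 the difference was 0.35 (adjusted p = 1.00).

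**Figure D1:**
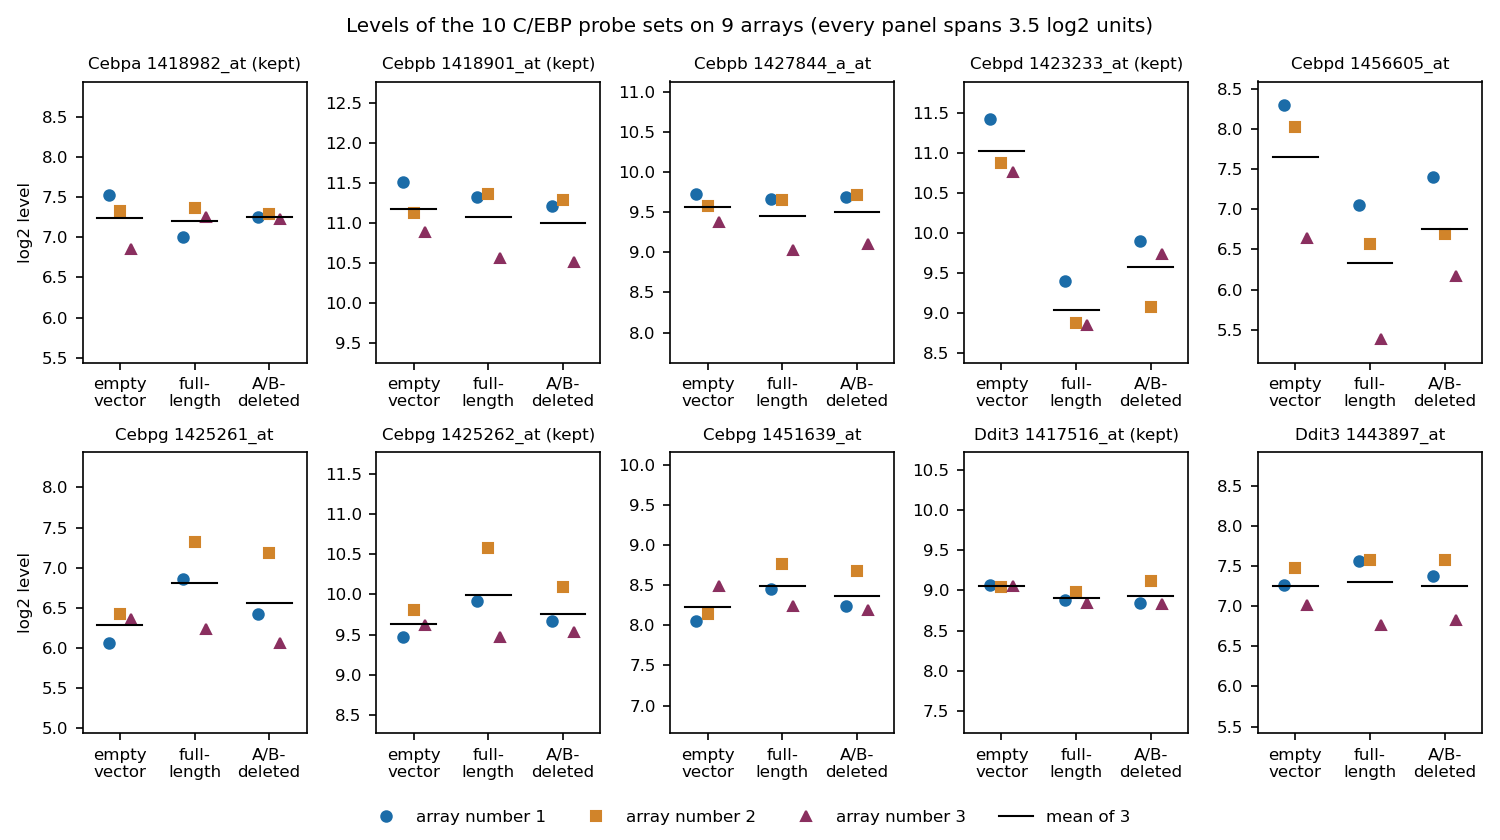
The log2 level of each of the 10 C/EBP probe sets is plotted for the 3 groups, with a symbol for each array number, a line at the mean of 3 arrays and "(kept)" beside the probe set that stood for its gene. Every panel spans 3.5 log2 units, and on Cebpd 1423233_at all 6 receptor arrays lie below the 3 empty-vector arrays, while the groups of Cebpa, Cebpb and Cebpg overlap.

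The genes whose levels followed Cebpd most closely over the 9 arrays, among the 9095 other genes above the median level, were Errfi1 (Pearson's r = 0.991), Dusp6 (0.990), Polb (0.985), Gypc (0.983) and Herpud2 (0.982). These are descriptions over arrays that share the group differences and the array numbers. Errfi1 encodes a feedback inhibitor of the EGF receptor, and it fell by 1.80 with the full-length receptor (SE 0.25, adjusted p = 0.0124). Its call was lost without full-length replicate 2 (adjusted p = 0.0668), without empty-vector replicate 1 (0.0615) and without the arrays numbered 3 (0.0647). Dusp6 encodes a phosphatase of ERK, and it fell by 2.04 (SE 0.23, adjusted p = 0.0043), a call kept under the alternatives run. Polb, a DNA polymerase gene (-0.32, adjusted p = 0.381), Gypc, a glycophorin gene (-0.59, adjusted p = 0.0755), and Herpud2 (-0.25, adjusted p = 0.598) had smaller differences that were not called. With the A/B-deleted receptor Errfi1 stood at -1.21 and Dusp6 at -1.42, beside -1.44 for Cebpd, and both were called with the block (adjusted p = 0.0239 and 0.0221) and not without it (0.210 and 0.0697).

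**Figure D2:**
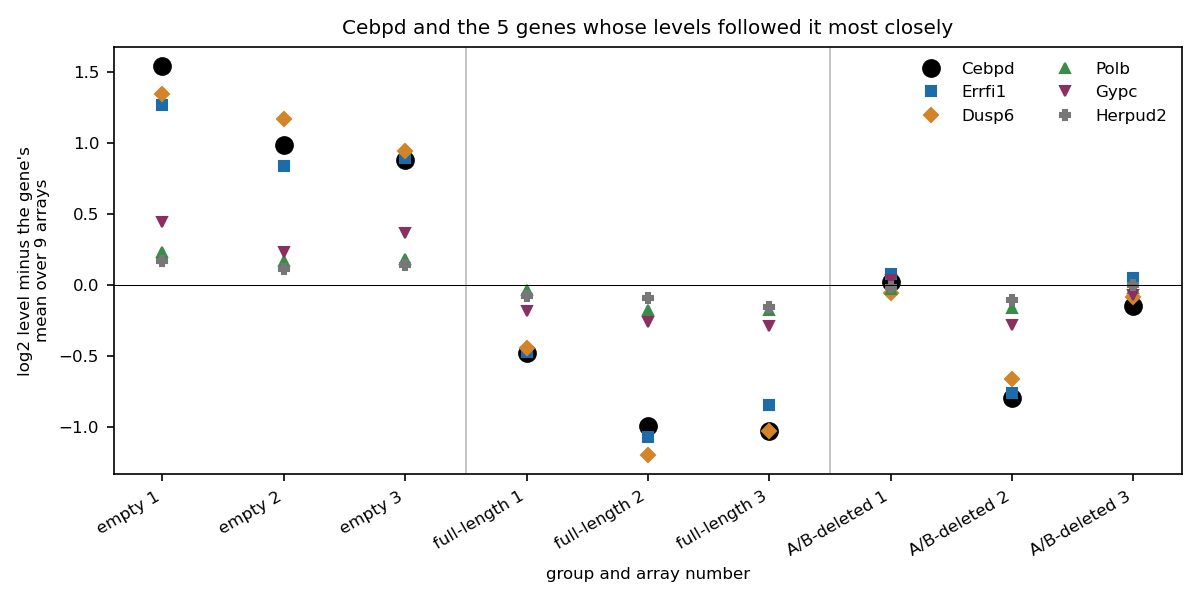
The level of Cebpd (large black points) and of Errfi1, Dusp6, Polb, Gypc and Herpud2 is plotted on each of the 9 arrays as the log2 level minus that gene's mean over the arrays. All 6 genes are lower on A/B-deleted array 2 than on the other A/B-deleted arrays, and Polb, Gypc and Herpud2 cover a smaller range.

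Cebpb encodes C/EBPβ, whose long and short proteins are made from the same transcript and are not told apart by these arrays. Its kept probe set, 1418901_at, read 11.51, 11.13 and 10.89 with empty vector, beside 11.32, 11.35 and 10.56 on the full-length arrays. The A/B-deleted arrays read 11.21, 11.29 and 10.51. The 3 groups overlapped, and in each of them the array numbered 3 was lowest, its level minus the mean of arrays 1 and 2 being -0.43, -0.78 and -0.74. The difference from empty vector was -0.097 for the full-length receptor, with a 95% interval from -0.72 to 0.53, and -0.17 for the A/B-deleted receptor, from -0.80 to 0.45. Neither was called (adjusted p = 1.00 for both, limma over all genes), and the receptors differed by -0.075 (95% interval from -0.70 to 0.55). Without the arrays numbered 3 the full-length difference was 0.019, of the opposite sign.

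The second probe set of Cebpb, 1427844_a_at, ran from 9.38 to 9.73 with empty vector, from 9.03 to 9.67 on the full-length arrays and from 9.10 to 9.71 on the A/B-deleted arrays, again lowest on the array numbered 3 in each group. Its differences from empty vector were -0.11 (SE 0.22) and -0.060 (SE 0.22). The block narrowed the interval of the A/B-deleted against the full-length receptor on the kept probe set to between -0.38 and 0.23. Intervals of this width leave room for changes of Cebpb smaller than that of Cebpd, whose own interval with the full-length receptor ran from -2.55 to -1.39.

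Cebpa encodes C/EBPα, the partner of PPARγ in the mature fat cell. Its single probe set, 1418982_at, read 7.52, 7.32 and 6.86 with empty vector, beside 7.0, 7.36 and 7.25 on the full-length arrays. The A/B-deleted arrays read 7.25, 7.29 and 7.23. All 9 values lay within 0.66 of each other and near the array medians, so whether the transcript was present at all cannot be read from this probe set. The difference from empty vector was -0.031 for the full-length receptor (95% interval from -0.42 to 0.36) and 0.024 for the A/B-deleted receptor (from -0.36 to 0.41). Neither was called (adjusted p = 1.00 for both, limma), nor was the difference of 0.055 between the receptors (from -0.33 to 0.44). Pparg, whose single probe set may read the transgene, was 4.20 and 4.28 higher in the same arrays.

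Cebpg encodes C/EBPγ, a short family member without an activation domain, and in the RefSeq gene table it lies near Cebpa on chromosome 7 with 2 listed genes between. Its kept probe set, 1425262_at, read 9.48, 9.81 and 9.62 with empty vector, beside 9.91, 10.58 and 9.47 on the full-length arrays. The A/B-deleted arrays read 9.66, 10.09 and 9.53. The highest array was array 2 in each group, and the groups overlapped. The full-length difference was 0.35 (95% interval from -0.24 to 0.94) and the A/B-deleted difference 0.13 (from -0.46 to 0.72), neither called (adjusted p = 1.00 for both, limma). All 3 probe sets of Cebpg had positive mean differences with the full-length receptor, from 0.26 to 0.52, and with the A/B-deleted receptor, from 0.13 to 0.27.

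The sign of Cebpg depended on the array number. Against the empty-vector array of equal number, the full-length arrays 1 and 2 were higher by 0.44 and 0.77 on the kept probe set and array 3 was lower, at -0.15. The other probe sets followed the same split, with 0.80, 0.89 and -0.12 on 1425261_at and 0.40, 0.62 and -0.25 on 1451639_at. The A/B-deleted arrays showed it too on the kept probe set, with 0.19, 0.28 and -0.088. Between the receptors the mean difference was -0.23 (95% interval from -0.82 to 0.36, and from -0.62 to 0.17 with the block), and it turned to 0.070 without full-length replicate 2. The A/B-deleted array lay below the full-length array of equal number in 2 of 3 pairs on the kept probe set and in 3 of 3 on each of the others. Without the arrays numbered 3 the full-length difference was 0.60 (adjusted p = 0.393), and without full-length replicate 2 it was 0.059.

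Ddit3 encodes CHOP. Its kept probe set, 1417516_at, varied little, at 9.07, 9.05 and 9.05 with empty vector, beside 8.88, 8.98 and 8.84 on the full-length arrays. The A/B-deleted arrays read 8.85, 9.11 and 8.83. All 3 full-length arrays lay below all 3 empty-vector arrays, but by little, with a difference of -0.15 (95% interval from -0.40 to 0.098) that was not called (adjusted p = 1.00, limma). The A/B-deleted difference was -0.12 (from -0.38 to 0.13), and the receptors differed by 0.029 (from -0.22 to 0.28). The second probe set, 1443897_at, did not follow, with 7.26, 7.48 and 7.01, then 7.56, 7.58 and 6.76, then 7.38, 7.57 and 6.82, and a full-length difference of 0.049 (SE 0.26). It was lowest on the array numbered 3 in each group.

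**Figure D3:**
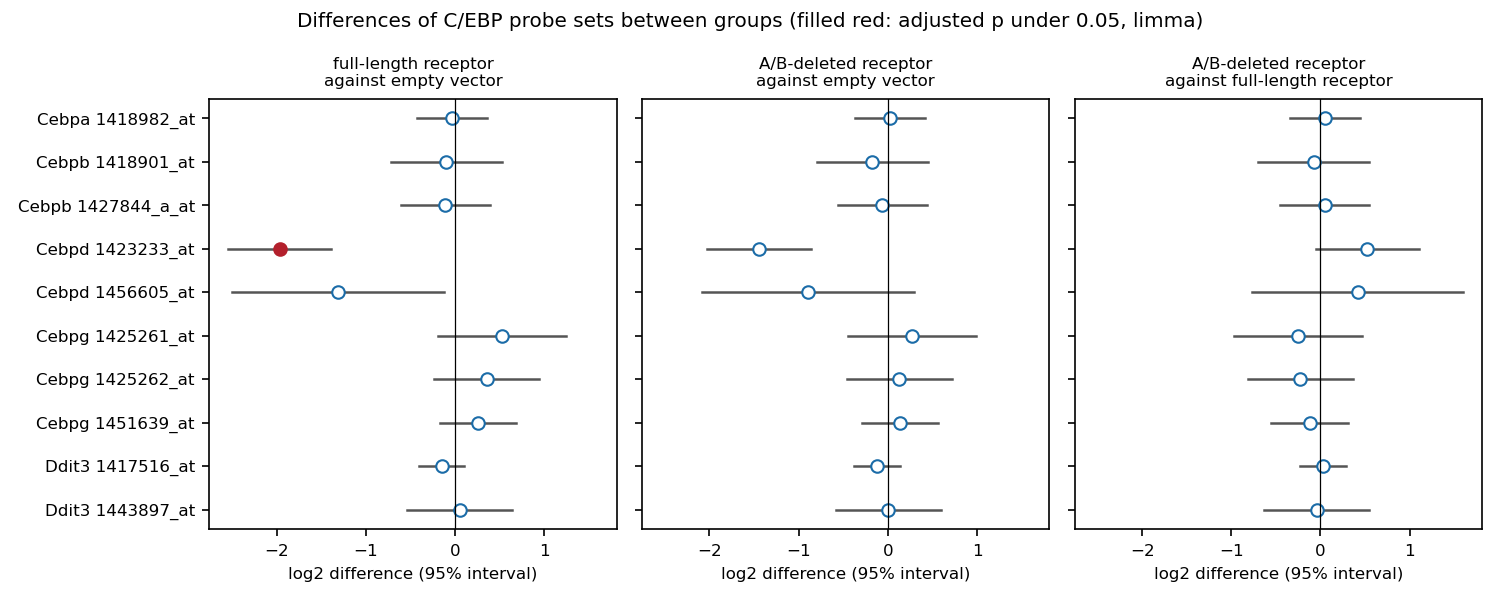
The log2 difference of each C/EBP probe set is plotted with its 95% interval for the 3 comparisons, and the filled red point marks an adjusted p under 0.05 over all probe sets. Cebpd 1423233_at with the full-length receptor, at -1.97, is the filled point, and its interval with the A/B-deleted receptor also lies below 0, while every interval of Cebpa, Cebpb, Cebpg and Ddit3 includes 0.

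Counted over the family, 1 of 5 genes was called with the full-length receptor, where 0.654% of all genes were, and 0 of 5 with the A/B-deleted receptor, where 0.17% of all genes were. With the block the A/B-deleted receptor had 1 of 5 called, against 0.912% of all genes. By probe set, 1 of 10 was called with the full-length receptor, against 0.527% of all probe sets, and 0 of 10 with the A/B-deleted receptor, against 0.114%, or 1 of 10 with the block, against 0.558%. The full-length and empty-vector arrays did not overlap in 2 of 10 probe sets, against 9.34% of all probe sets, and the A/B-deleted and empty-vector arrays in 1 of 10, against 8.57%. Besides Cebpd 1423233_at, the separated probe set was Ddit3 1417516_at. The 2 comparisons share the empty-vector arrays. Between the receptors 0 of 5 genes and 0 of 10 probe sets were called, with or without the block, as were 0% of all genes and 0% of all probe sets by limma, where 277 genes had an unadjusted p under 0.05, and 0 of 10 probe sets were separated, against 5.91%. The median difference over the 5 genes was -0.097, -0.12 and 0.029 in the 3 comparisons, beside 0.0032, -0.025 and -0.011 over all genes.

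Other bZIP factors, with which C/EBP proteins can pair or share their fold, were next. Of 22 with a probe set, 1 fell with the full-length receptor and 21 were not called, with a median of -0.12, and 0 were called with the A/B-deleted receptor (median -0.097). Jun, a subunit of AP-1, was the one that fell, from 10.40, 10.59 and 10.72 to 9.34, 9.90 and 9.27. The groups did not overlap, and the difference was -1.07 (SE 0.19, adjusted p = 0.0486, limma). That call was lost without any 1 array but full-length replicate 2, with adjusted p up to 0.207, and without the arrays numbered 3, where Fosl2 took its place as the 1 called. With the block Fosl1 (0.54, adjusted p = 0.0285) was called higher and Fosl2 (-0.72, adjusted p = 0.0465) lower with the A/B-deleted receptor, both AP-1 subunits chosen after their values were seen.

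Genes of the cAMP, glucocorticoid and cytokine pathways that induce Cebpb and Cebpd had 0 of 25 called with either receptor, with medians of -0.0050 and -0.060. The 2 with the largest full-length difference were Osmr, the oncostatin M receptor gene, at -0.87 (SE 0.89), and Per1, a clock gene induced by glucocorticoids, at -0.43 (SE 0.40). Both had adjusted p of 1.00 by limma without the block, and with it both were called lower (0.0358 and 0.0305). With the block 1 was called with the A/B-deleted receptor, the interleukin 6 gene Il6, higher by 1.04 (adjusted p = 0.0118), chosen after its value was seen.

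Acute phase and inflammatory genes, known as targets of C/EBPβ and C/EBPδ, had 2 of 18 called lower with the full-length receptor (median -0.098). Cxcl5, a neutrophil chemokine gene, fell from 8.76, 10.08 and 8.45 to 6.20, 6.55 and 5.41, a difference of -3.05 (SE 0.42, adjusted p = 0.0124, limma). With the 6 compared arrays alone its adjusted p was 0.0537. Tnfaip6, which encodes a hyaluronan-binding protein induced by inflammation, fell by 1.68 (SE 0.19, adjusted p = 0.0043). The arrays of both genes were separated by group. With the A/B-deleted receptor 0 of 18 were called (median -0.063), with Cxcl5 at -1.72 (adjusted p = 0.401) and Tnfaip6 at -1.15 (adjusted p = 0.0697). With the block Tnfaip6 (adjusted p = 0.0199) and the prostaglandin synthase gene Ptgs2 (-0.80, adjusted p = 0.0331, chosen after its value was seen) were called lower and Il6, also in this list, higher. Without the arrays numbered 3, Cxcl5, Tnfaip6 and Ptgs2 were called lower with the full-length receptor and Ptgs2 with the A/B-deleted receptor.

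Adipocyte genes known as targets of C/EBPα had 2 of 13 called, with each receptor, Pparg and Fabp4. Pparg is the transduced gene, and its single probe set may read the transgene. Whether C/EBPα had a part in these calls was not tested. Fabp4, the fatty acid binding protein gene of fat cells, rose by 7.60 and 6.54, and the other 11, among them Adipoq, Lep and Slc2a4, were not called. The medians were 0.14 and 0.026. Regulators of early adipogenesis had 1 of 25 called with each receptor, again Pparg, with medians of -0.018 and -0.041. Genes of the ATF4, CHOP and unfolded protein response had 0 of 30 called with either receptor, with medians of -0.049 and -0.092. Their largest full-length differences were those of Nupr1, a stress-induced chromatin protein gene, at 0.80 (adjusted p = 0.910), and Vldlr, a lipoprotein receptor gene, at 0.43 (adjusted p = 1.00). With the block Nupr1 was called higher (adjusted p = 0.0249, limma).

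Ribosome biogenesis genes, a general list drawn up for Cebpz, had 1 of 30 called with the full-length receptor and 0 of 30 with the A/B-deleted receptor. The medians were 0.16 and 0.13. The one that rose was Noc3l, a nucleolar assembly factor gene, from 8.52, 8.46 and 8.74 to 9.22, 9.39 and 9.46, by 0.78 (SE 0.12, adjusted p = 0.0249, limma). Its call was lost without any 1 of the 3 full-length arrays, empty-vector replicate 1 or 2 or A/B-deleted replicate 1, with adjusted p up to 0.135, and with the mean of its probe sets (0.57, adjusted p = 0.181). With the A/B-deleted receptor it stood at 0.68 (adjusted p = 0.121, and 0.0219 with the block). Across these lists 0 genes were called between the receptors.

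**Figure D4:**
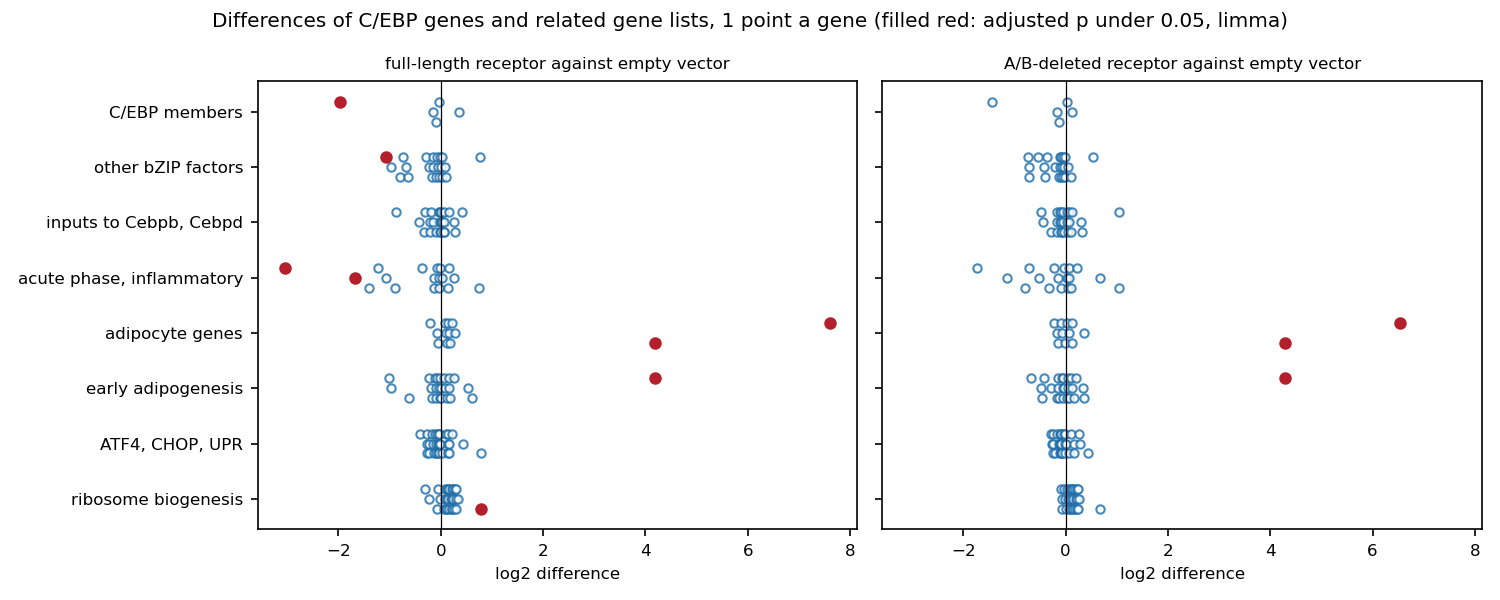
Each point is a gene's log2 difference from empty vector, with the full-length receptor on the left and the A/B-deleted receptor on the right, for the C/EBP genes and 7 related lists, and filled red points have an adjusted p under 0.05 over all genes. Most points lie close to 0, and Cebpd, Jun, Cxcl5, Tnfaip6 and Noc3l are filled on the left only.

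The cells read as fibroblasts in every group. Of 15 fibroblast markers, 13 lay above the array median on all arrays of each group, with a mean level from 10.79 to 11.71, and 0 were called in any comparison. Adipocyte markers averaged 5.77 to 6.02 with empty vector, 7.45 to 7.77 with the full-length and 6.82 to 7.21 with the A/B-deleted receptor. Of 6 genes, Fabp4 and Cidec rose with the full-length receptor and Fabp4 with the A/B-deleted receptor. The median difference of the 6 was only 0.16 with the full-length receptor, with 4 positive. With the A/B-deleted receptor it was 0.012, with 3 positive. Leukocyte markers, relevant because Cebpa and Cebpb are also myeloid factors, had 0 of 10 called, with means from 6.72 to 7.16 over all arrays. Epithelial markers (0 of 8 called, 6.65 to 7.27), endothelial markers (0 of 7, 5.74 to 6.17) and muscle markers (0 of 8, 6.70 to 7.11) also had no call by limma. Above the array median on all arrays of a group were 2 leukocyte, 2 epithelial and 2 to 3 muscle markers. For endothelial markers the count was 0, and for adipocyte markers 0 to 1. Values at exactly 0 numbered 0 in these marker lists, and the part of other cells in the C/EBP levels was not tested.

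The genes that followed the other members most closely over the 9 arrays are given as descriptions. For Cebpb they were Dtnbp1 (r = 0.968), Klhl9 (0.961), Hnrnpab (0.959), Dctn4 (0.956) and Edem3 (0.954). Cebpg was followed by Ptprs (0.952), Stat5a (0.949), Pcnx3 (0.943), Trim39 (0.930) and Fam120b (0.926). For Cebpa they were 1700036A12Rik (0.964), Slc25a45 (0.952), Bphl (0.952), Serhl (0.937) and Abcg4 (0.934). Ddit3 had the least close followers, Mia3 (0.902), Mocs3 (0.869), Zfp9 (0.853), Akap11 (0.849) and Ano6 (0.842). None of these 20 genes was called in any comparison, and some differ from their member by scale, since r takes no account of size.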

How the data were processed

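Total RNA of 9 NIH-CAR cultures was measured on Affymetrix arrays. The authors deposited 1 log2 value per probe set and array, which the submitters' processing notes link to RMA, affy and R 2.5.0. The log base was read from the values: for at least 99.858% of each array's values the antilog to base 2 was a multiple of 0.01, within 0.01 of that unit. Array number limits the precision, since arrays have no read depth. Symbols came from the platform annotation, and 64 control probe sets, 9160 with no symbol and 932 with several were left out. Values were used as deposited.

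Differences were tested with limma 3.58.1 in R 4.3.3 (lmFit, contrasts, eBayes, two-sided) over all 9 arrays with 3 group means and no block, adjusted by Benjamini-Hochberg over 18193 genes, and again over 34945 probe sets. The script was tested on simulated data. Figures used matplotlib 3.10.9.

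Equal replicate numbers were checked as pairs by correlating, over genes, each array's departure from its group mean. It was 0.520 to 0.708 between A/B-deleted receptor and empty vector and 0.297 to 0.531 between the receptors. It was -0.121, 0.631 and 0.255 between full-length receptor and empty vector. The main fit paired no arrays in any comparison, and the block was run as an alternative in every comparison. These correlations cannot decide the question, because arrays of unequal number were not correlated for comparison. The last-numbered array stood apart in every group, so equal numbers can correlate without being pairs. Pairing the A/B-deleted arrays with both other groups would also pair those groups with each other. Whether equal numbers were pairs is therefore not known. Genes outside the family were named if called from a list, or as the 2 largest full-length differences where none was called, or as the 5 closest patterns to a member. Marker lists of other cell types followed the same fit. The members, lists and alternatives were chosen with earlier results of these data known. Alternatives were the block, leaving out arrays, only the compared arrays, mean probe sets, median subtraction, quantile normalization, a filter on low levels and an intensity trend.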

Additional observations from a re-analysis of the deposited data

How the results depend on the processing

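The 15 differences of the 5 C/EBP genes were recomputed under 18 alternatives each. The block, a left-out array of the group not compared, the compared arrays alone, the low-level filter and the intensity trend cannot change a difference. They can change only its p-value, so part of the kept directions was fixed in advance. Of the 270 values, 246 kept their direction and their side of the threshold, 2 lost a call, 2 gained one and 20 changed sign, and 0 of those 20 had an adjusted p under 0.05 by limma. The causes were not tested. For Cebpd with the full-length receptor the call was lost with the mean of its probe sets (-1.64), and leaving out 1 array gave -2.15 to -1.77. For Cebpd with the A/B-deleted receptor the replicate block gave a call (-1.44), also without the arrays numbered 3 (-1.65), which was added after seeing the data. For full-length receptor against empty vector the block left the calls of the C/EBP genes as they were (Cebpd adjusted p = 0.00246, limma). It also called the second probe set of Cebpd lower (adjusted p = 0.0129), Osmr (0.0358) and Per1 (0.0305) lower and Nupr1 (0.0249) higher. Over all genes the block called 661 of 18193 in the full-length comparison. By list, it called 4 lower and 1 higher of the 22 other bZIP factors. Of the 18 acute phase and inflammatory genes it called 6 lower and 1 higher. Of the 25 regulators of early adipogenesis it called 3 lower and 3 higher, and of the 30 ATF4, CHOP and unfolded protein response genes 1 lower and 1 higher. Median subtraction and quantile normalization changed no call of a C/EBP gene. The block moved the genes called from 119 to 661 with the full-length receptor and from 31 to 166 with the A/B-deleted receptor, and with the arrays numbered 3 left out as well to 361 and 96. Without those arrays and no block, 55 were called with the A/B-deleted receptor. With the 6 compared arrays alone 67 and 20 were called. Leaving out 1 array gave 57 to 114 and 17 to 34. With the full-length receptor the count moved by over 1.5 times when replicate 1 or 2 was left out of the full-length arrays (71, 57) or of the empty-vector arrays (69, 62). With the A/B-deleted receptor it did without replicate 1 (19) or 2 (17) of either group. Between the receptors it gave 0 to 1, the 1 being Cidec without full-length replicate 3, and the filter on low levels gave 1, Adamts4.

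Uncalled differences that changed sign or size were as follows. Leaving out 1 array gave Cebpa a range of -0.22 to 0.11 with the full-length receptor, -0.16 to 0.17 with the A/B-deleted receptor and -0.048 to 0.14 between them. The ranges of Cebpb were -0.24 to 0.16, -0.32 to 0.073 and -0.33 to 0.17. Cebpg ran from 0.059 to 0.61 with the full-length receptor, from -0.037 to 0.25 with the A/B-deleted receptor and from -0.48 to 0.070 between the receptors, and Ddit3 from -0.22 to -0.075 with the A/B-deleted receptor and from -0.062 to 0.078 between them. Without the arrays numbered 3, with or without the block, Cebpa stood at -0.15 with the A/B-deleted receptor and Cebpb at 0.019 with the full-length receptor. With the mean of its probe sets Ddit3 stood at -0.0074 between the receptors. The median standard error of a difference was 0.158, and with 3 arrays a group even the difference of -1.44 for Cebpd was not called without the block.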
